A study of Mus musculus with 3 samples.

Results

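Methylated CCGG sites of E14Tg2A cells treated with pargyline were compared with those of untreated cells on day 7 of differentiation, by gene promoter, gene body and 1 Mb bin. Of 51229 autosomal genes, 13799 had 3 or more listed CCGG sites within 1 kb of a start site, 20500 gene bodies had 3 or more sites outside those windows, and 2411 of 2473 bins of 1 Mb had 3 or more. These units were built from 944683 autosomal CCGG sites listed in either day 7 library, of 996492 autosomal CCGG sites listed in any library of the series and 2231048 sites of every motif and chromosome. E14Tg2A is a mouse embryonic stem cell (ESC) line. Both day 7 cultures had LIF withdrawn and received retinoic acid, and 1 of them also received 3 mM pargyline. The library from undifferentiated ESCs is given beside them as the starting level. The study asked whether blocking the demethylase LSD1 changes the DNA methylation that ESCs gain at regulatory elements. Each condition was 1 library of 1 cell line, and the tables hold no measure of LSD1 activity or of cell identity, so the labels were taken as given and no difference here has a replicate check.

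MethylRAD uses FspEI, an enzyme that cuts on both sides of a methylated cytosine and releases a short fragment, so that the number of fragments from a CCGG motif reports on its methylation. LSD1, encoded by Kdm1a, removes methyl groups from mono- and dimethylated H3K4, and pargyline is a monoamine oxidase inhibitor that also inhibits LSD1. The de novo methyltransferases DNMT3A and DNMT3B bind histone H3 that lacks methylation at K4, and CpG islands at promoters are normally kept free of DNA methylation.

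The sites below come from promoters with the largest differences and are shown because they were listed only or mostly on 1 side of the comparison. By CpG class, the promoters of Tmem132b, Ebf2 and Ache are high, those of Prdm12 and Pgr intermediate and that of Spp1 low. Each is the forward strand of GRCm38, with the CCGG motif in capitals, and positions are counted in bases from the nearest start site of the gene.
Prdm12, at -923, outside the gene (chr2:31639101-31639130): tctcccaagctgtCCGGgttgccaccgcag
Prdm12, at -135, outside the gene (chr2:31639889-31639918): attttgtgaatctCCGGtttggctccctgt
Prdm12, at 526, in an intron (chr2:31640550-31640579): cagatcccaacgaCCGGagcgacttacctc
Tmem132b, at 539, in an intron (chr5:125532913-125532942): cgctgcctggcacCCGGgccccggggtctg
Ebf2, at -532, outside the gene (chr14:67232747-67232776): gctgggaacatggCCGGgacaagaaagaag
Ache, at -764, outside the gene (chr5:137287500-137287529): atgaaagcttggcCCGGtgatgtcatggac
Pgr, at 284, in an exon (chr9:8900104-8900133): ctttttttcagcaCCGGccacaccagttcc
Spp1, at -491, outside the gene (chr5:104434614-104434643): gagccactgtggcCCGGccaacctaagcta
Spp1, at 227, in an intron (chr5:104435335-104435364): cattgcaggtttcCCGGtattttcaaagcc
The 3 Prdm12 sites, the Tmem132b site and the Ache site were not listed in the untreated library and had 29, 29, 27, 32 and 19 reads with pargyline. The Ebf2 site had 5 untreated and 33 treated reads and the Pgr site 13 and 29. The Spp1 sites went the other way, with 30 untreated and 8 treated reads at -491, and 42 reads and no listing at 227.

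The untreated library held 34222790 reads at 859372 of these sites, the treated library 24035286 reads at 869223, and the undifferentiated library 29711884 at 847112. The treated library was therefore the shallower of the pair and still listed more sites, with 85311 sites listed only with pargyline and 75460 listed only without it. The sites listed on 1 side were shallow, at a median of 7 reads with pargyline and 8 without. Counts were scaled to reads per 1000000 CCGG reads, on which 1 read was worth 0.0292 in the untreated and 0.0416 in the treated library. The tables list a site only from 5 reads, so an unlisted site can have had up to 4. A promoter was called higher or lower only if its scaled reads differed at least 2-fold with unlisted sites set at 0 and again with them set at 4 reads, and if the exact 95% interval of the ratio left out 1. The limits were 1.5-fold for gene bodies and 1.1-fold for bins. The intervals cover counting error only, and since fragments of a site share their ends, PCR copies cannot be told from separate molecules. At the 100556 sites with 30 to 40 untreated reads, the log2 ratio had an SD of 0.66, while counting alone gives 0.40, so single sites varied beyond the intervals. In DNA from bulk cells, methylation in more cells and in more copies per cell cannot be told apart. The share of mapped reads that fell on CCGG sites was 38.3% with pargyline, 49.7% without it and 62.0% before differentiation.

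Promoters were higher with pargyline far more often than lower, and the ratio was largest in CpG-rich promoters. Of the 13799 promoters, 1829 were called higher (13.3%) and 51 lower (0.37%), and the median log2 ratio of treated to untreated was 0.30, with quartiles of -0.09 and 0.87. Counting only sites listed in both libraries gave 526 higher and 16 lower, and scaling by the authors' RPM, which counts all mapped reads, gave 679 and 332. Genes that share sites counted once gave 1709 higher of 13097. The 1829 promoters had a median of 5 sites, with 17 reads untreated and 52 treated, so the higher level was still a low one, and 244 of them had no untreated read listed. A promoter counted here only if 3 sites were listed in either library, so a promoter that was empty without pargyline could enter only by being higher with it. For this reason the levels below are also given per CCGG motif of the reference, over all genes and with no minimum.

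Over the 13654 genes with a high-CpG promoter, all 141720 motifs together had 55 scaled reads per 1000 motifs in undifferentiated cells, 73.9 in untreated cells and 106 with pargyline, which is 1.43-fold between the day 7 libraries. The share of these motifs that was listed went from 8.49% in undifferentiated to 14.6% in untreated and 18.4% in treated cells. Promoters of intermediate CpG content had 434, 440 and 490 scaled reads per 1000 motifs, a ratio of 1.11. Low-CpG promoters, at 799, 787 and 794, and motifs beyond 1 kb of any start site, at 708, 706 and 701, differed by 1.01-fold and 0.992-fold. The order was the same among the promoters with 3 or more sites, where 1271 of 6805 high-CpG promoters were called higher and 19 lower, against 475 and 23 of 4063 intermediate and 83 and 9 of 2931 low. Their median log2 ratios were 0.55, 0.24 and 0.06. Scaled instead by the authors' RPM, every log2 ratio moves by -0.38, the high-CpG median stays above 0 at 0.17, and the intermediate and low medians turn to -0.14 and -0.32.

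**Figure D1:**
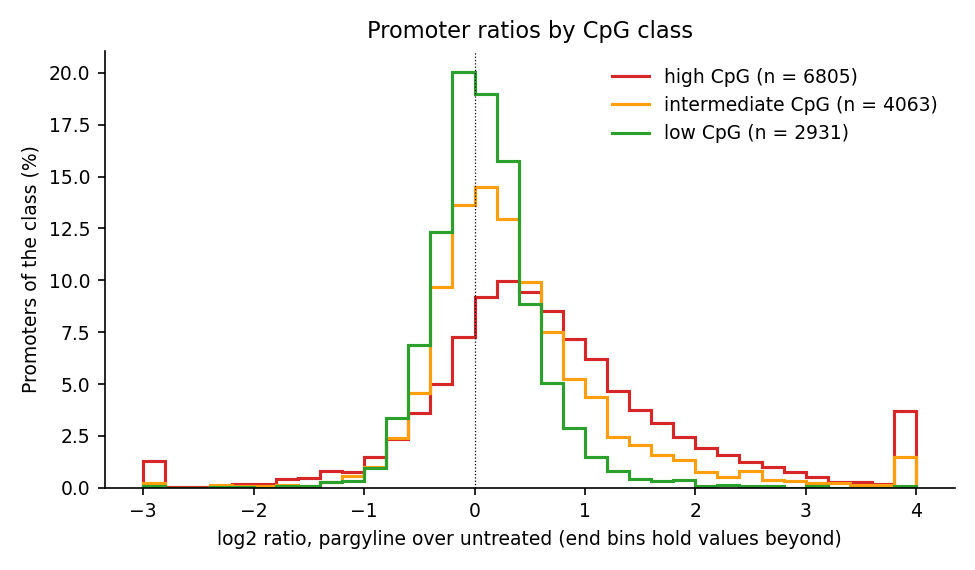
Distribution of the promoter log2 ratio of treated to untreated scaled CCGG reads by CpG class, for promoters with 3 or more sites. The high-CpG distribution lies to the right of the other classes, with a median of 0.55 against 0.24 and 0.06.

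The ratio of treated to untreated was largest close to the start site. In high-CpG promoters, the 250 bases before the start site had 18.7 scaled reads per 1000 motifs in undifferentiated, 34.6 in untreated and 58.4 in treated cells, a ratio of 1.69 between the last 2. From the start site to 250 bases after it the levels were 15.3, 34.3 and 54.0, a ratio of 1.57, and from 250 to 500 bases they were 26.5, 48.7 and 78.3, a ratio of 1.61. These were the least methylated stretches of the promoters in all 3 libraries. The ratio fell with distance, to 1.30 at 750 to 1000 bases, 1.23 at 1000 to 1250 bases and 1.01 at 2250 to 2500 bases, where the levels had risen to 740, 742 and 746. As a difference in level the flanks moved more, from 327 untreated to 401 treated at 1000 to 1250 bases. Scaled by the authors' RPM, the ratios from the 250 bases before the start site to 500 bases after it stay above 1, and those given from 750 bases outward fall below 1.

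**Figure D2:**
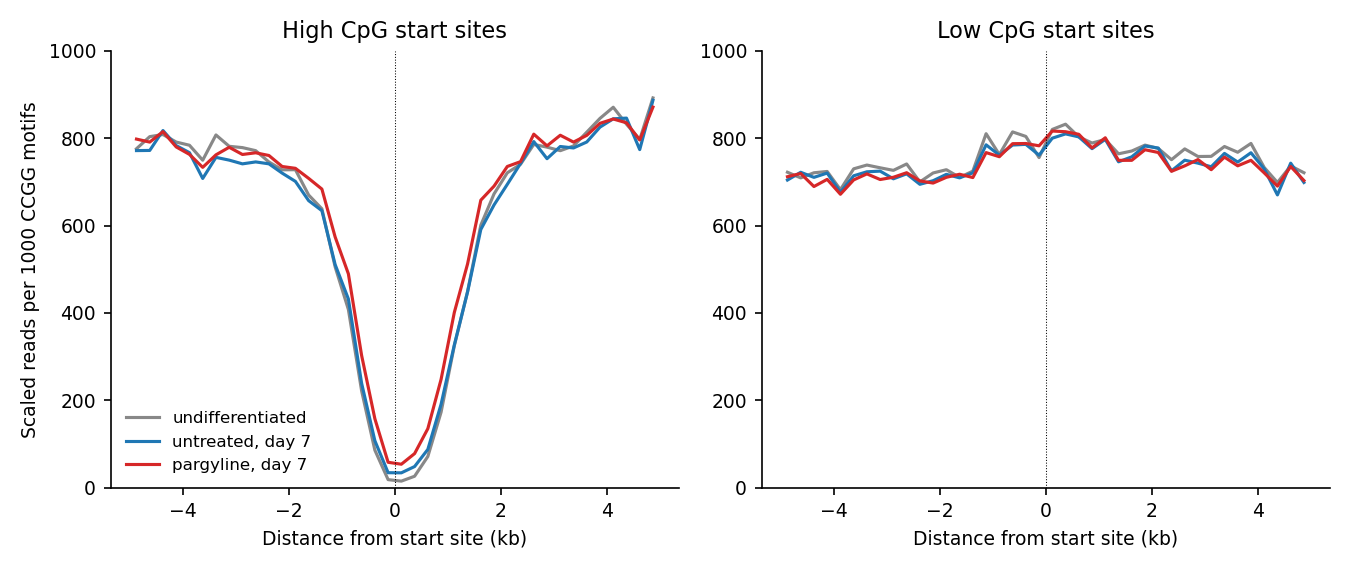
Scaled CCGG reads per 1000 motifs by distance from the nearest start site, in 250-base steps on a linear axis, for the 3 libraries at start sites of high and of low CpG content. Around high-CpG start sites the treated line runs above the untreated line, at 58.4 against 34.6 in the 250 bases before the start site, and at low-CpG start sites the lines stay close together.

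The lower a promoter stood in undifferentiated cells, the larger was the ratio. The 7504 genes whose promoter motifs had no undifferentiated read listed went from 17 scaled reads per 1000 motifs in untreated to 33.6 in treated cells, 1.98-fold. Those with up to 50 went from 44.3 to 81.4, 1.84-fold, and those between 50 and 200 from 133 to 187, 1.41-fold. Between 200 and 500 the ratio was 1.20, between 500 and 1000 it was 1.06, and above 1000 it was 0.970, and these last 3 are all below 1 when scaled by the authors' RPM. The largest ratios thus belonged to promoters with the least methylation at the start. Pooled over the promoters of each chromosome, the log2 ratio lay between 0.11 and 0.20 on all 19 autosomes, and it falls below 0 on all of them when scaled by the authors' RPM.

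CCAGG sites, which hold no CpG at the methylated cytosine, were listed more often in the treated than in the undifferentiated library. In high-CpG promoters the CCAGG reads per motif were 0.698 in undifferentiated and 2.69 in treated cells, and beyond 1 kb of start sites they were 1.15 and 3.21. These are raw reads, not scaled for depth, and the treated library had more mapped reads than the undifferentiated one. The CCAGG counts in the untreated list are a copy of the undifferentiated ones, so no treated to untreated ratio could be formed at this motif. In the promoters called higher the CCAGG reads per motif were 0.864 undifferentiated and 4.38 treated, beside CCGG reads per motif of 1.92 untreated and 4.98 treated, all unscaled. Their part in the promoter difference was not tested.

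Genes of developmental regulators stood among the 10 promoters named as higher with pargyline, which were those with an interval farthest from 0. Prdm12, a PRDM-family zinc finger factor needed for pain-sensing neurons, had 0 reads in undifferentiated, 17 in untreated and 239 in treated cells, 19.5-fold higher on the scaled counts, with an interval of 12.2 to 34.9. All 14 of its listed sites were higher with pargyline, 12 of them listed only there, and with unlisted sites at 4 reads the ratio was 5.21. Tmem132b, which encodes a membrane protein, had 13, 7 and 129 reads in the same order, 24.6-fold higher (12.4 to 66.6), and 8 of its 9 sites were listed with pargyline and not in the untreated library. The sites printed above for both genes are among these.

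Transcription factors of the paired and homeobox classes followed. Pax2, a paired-box factor of the kidney and the midbrain-hindbrain boundary, had 19 undifferentiated, 12 untreated and 124 treated reads, 14.2-fold higher (8.13 to 29.2). Pax7, which marks muscle stem cells and neural crest, had 0, 10 and 100 reads, 13.6-fold higher (7.43 to 30.6). Pitx1, a paired-type homeobox factor of the hindlimb and pituitary, had 0, 8 and 111 reads, 18.7-fold higher (9.69 to 46.9). In each of the 3 genes the undifferentiated and untreated libraries held few reads and the treated library at least 100. Ebf2, a helix-loop-helix factor of the early B cell factor family, had 22, 16 and 156 reads, 13.5-fold higher (8.28 to 24.9), and all 11 of its sites were higher.

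The other genes named by the rule had different functions. Ache, which encodes acetylcholinesterase, had 27, 26 and 227 reads, 12.2-fold higher (8.27 to 19.4), with 16 of 16 sites higher. Pgr, the progesterone receptor gene, had 0, 13 and 120 reads, 12.7-fold higher (7.40 to 25.4). Pdgfa, a platelet-derived growth factor chain, had 6, 11 and 106 reads, 13.2-fold higher (7.37 to 28.3). Ostm1, whose product pairs with a lysosomal chloride transporter, had 5, 7 and 97 reads, 18.5-fold higher (9.22 to 50.4). Many of the sites of these 10 promoters were unlisted without pargyline, and with such sites at 4 reads the 10 ratios lay between 2.72 for Pitx1 and 5.21 for Prdm12.

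**Figure D3:**
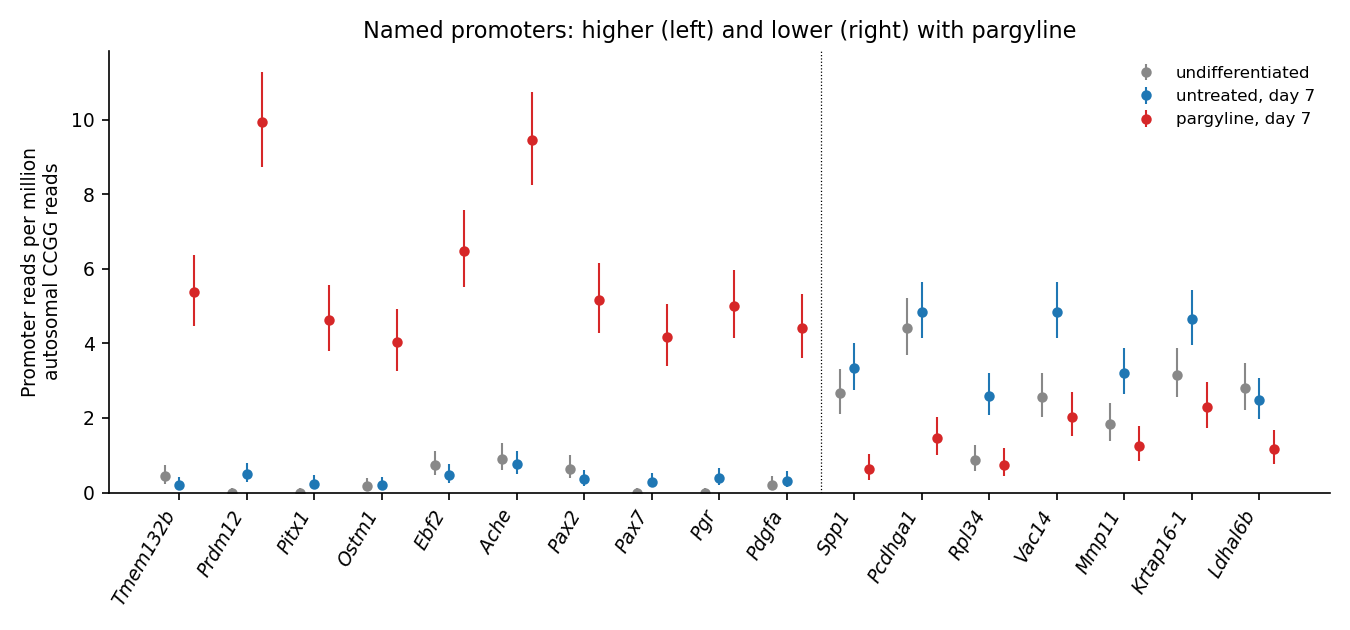
Scaled CCGG reads of each named promoter in the 3 libraries, with the exact 95% interval from counting, on a linear axis. The 10 promoters called higher sit at 4.04 to 9.94 scaled reads with pargyline and at 0.76 or less in untreated cells, and the 7 called lower run the other way.

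Few promoters were lower, and their sites were few. Only 7 protein-coding promoters called lower had 100 or more reads. Spp1, which encodes the matrix protein osteopontin, had 79 undifferentiated, 114 untreated and 15 treated reads, 5.19-fold lower (3.10 to 9.85), with all 5 sites lower and 3 of them listed in the untreated library only. Rpl34, a ribosomal protein gene, had 26, 89 and 18 reads, 3.40-fold lower (2.08 to 6.13), and 74 of its untreated reads came from 1 site at -992. In Pcdhga1, the first variable exon of the protocadherin gamma cluster, the reads were 131, 166 and 35, 3.29-fold lower (2.3 to 4.94). Mmp11, a matrix metalloproteinase gene, was 2.54-fold lower (55, 110 and 30 reads), and Vac14, whose product is a scaffold of a lipid kinase complex, was 2.36-fold lower (76, 166 and 49). Ldhal6b and the keratin-associated protein gene Krtap16-1 were 2.11-fold and 2.02-fold lower. In Spp1, Rpl34, Pcdhga1, Mmp11, Vac14 and Krtap16-1 the untreated level was above the undifferentiated one and the treated level below it.

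Among the gene lists, neural, Hox, non-Hox homeobox and endoderm genes had the largest ratios. Over all members and with no minimum, the 39 Hox promoters had 117 scaled reads per 1000 motifs in undifferentiated, 113 in untreated and 287 in treated cells, 2.53-fold (2.40 to 2.67). The 24 neural genes had 55.4, 64.5 and 178, 2.76-fold (2.54 to 3.01), and the 22 endoderm genes 81.4, 106 and 233, 2.20-fold (2.02 to 2.39). Neighbouring Hox promoters overlap and share some motifs. A pair of broader lists was made after values had been seen and is given as a description only. Homeobox and paired genes outside Hox had 65.2, 84.4 and 210, 2.49-fold, and Fox, Sox and T-box genes 76.6, 102 and 180, 1.77-fold. All 5 lists stayed above a ratio of 1 when scaled by the authors' RPM. The ratio over all high-CpG promoters was 1.43.

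**Figure D4:**
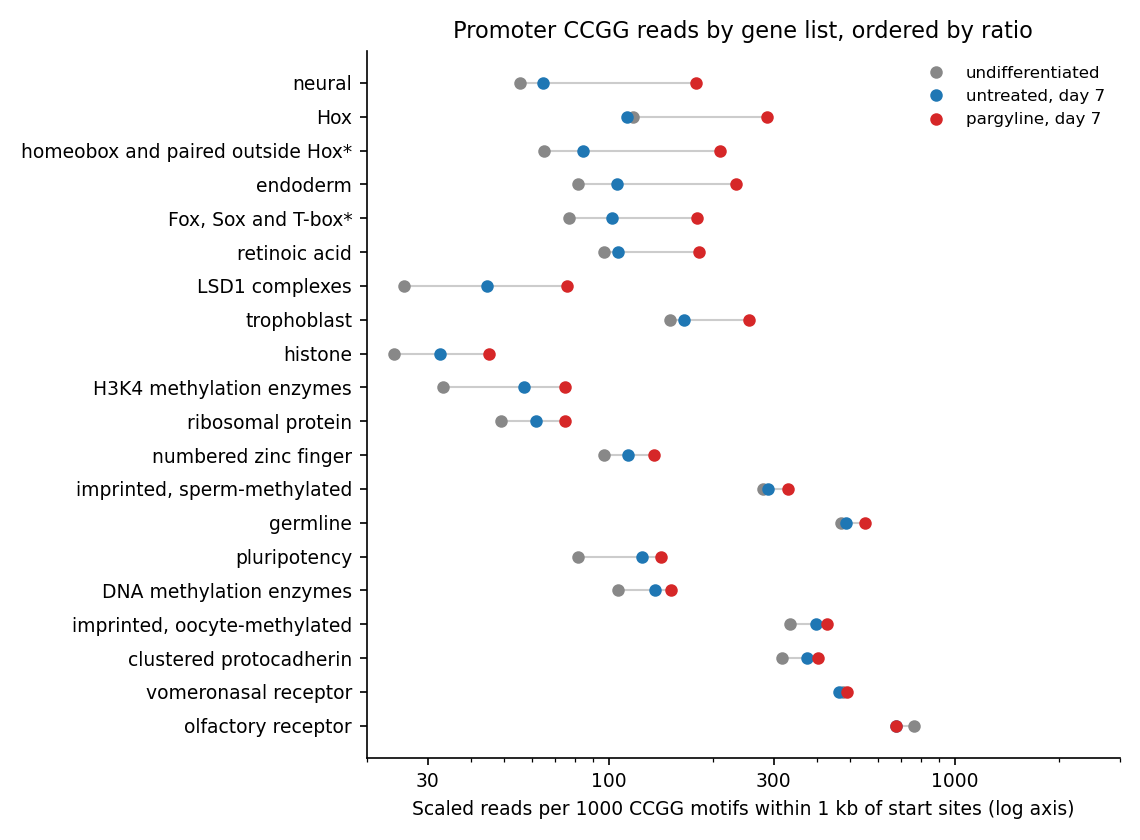
Scaled CCGG reads per 1000 motifs over all promoters of each gene list in the undifferentiated, untreated and treated libraries, on a log axis. The treated points stand clear of the untreated ones for Hox, neural and endoderm genes, at 287 against 113, 178 against 64.5 and 233 against 106, and coincide for olfactory receptor genes at 676 and 679.

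Members of the lists differed in their level before differentiation, and the Hox ratio was larger where that level was low. For the 12 high-CpG Hox promoters with up to 50 scaled reads per 1000 motifs in undifferentiated cells, the level went from 18.7 untreated to 127 treated, 6.76-fold (5.58 to 8.30). The same restriction gave 22.5 to 97.1 for 16 neural genes, 4.30-fold, and 30.8 to 163 for 10 endoderm genes, 5.27-fold. Over all 8694 genes with such promoters it gave 26.5 to 48.7, 1.84-fold, and for 57 ribosomal protein genes 25.3 to 37.4, 1.48-fold. The ratios of other lists at this starting level were 6.11 for 4 clustered protocadherin genes, 4.30 for 56 homeobox and paired genes outside Hox, 3.34 for 6 trophoblast genes, 3.41 for 38 Fox, Sox and T-box genes, 1.61 for 9 retinoic acid genes, 2.65 for 8 DNA methylation enzymes, 1.99 for 54 histone genes, 1.80 for 18 genes of the LSD1 complexes, 1.60 for 122 numbered zinc finger genes, 1.41 for 15 H3K4 methylation enzymes and 1.32 for 12 pluripotency genes. For the 4 oocyte-methylated and 4 sperm-methylated imprinted genes left, they were 2.23 and 2.27. For 3 genes with enhancers measured by qPCR the ratio was 1.92, and 1 vomeronasal receptor gene went from 29.2 to 0. The treated CCAGG reads per motif in these promoters were 2.35 for Hox, 3.08 for neural, 3.48 for endoderm and 1.22 for ribosomal protein genes, beside 1.92 for all.

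Across the 4 Hox clusters, which order the body axis, the level over the whole cluster was higher with pargyline. HoxA (chr6:52155590-52260880) went from 189 untreated to 440 treated scaled reads per 1000 motifs, 2.33-fold (2.21 to 2.46), with 94 motifs listed with pargyline only and 5 without it only. HoxD (chr2:74668310-74765142) went from 191 to 385, 2.02-fold, HoxC (chr15:102921103-103036852) from 255 to 505, 1.98-fold, and HoxB (chr11:96194316-96368256) from 282 to 462, 1.64-fold. In the 100 kb on each side of the clusters the ratios were 1.16 for HoxA, 1.18 for HoxD, 1.19 for HoxC and 1.1 for HoxB, and these 4 turn below 1 when scaled by the authors' RPM, while the clusters stay above it. Unscaled CCAGG reads per motif within HoxA were 0.882 in undifferentiated and 4.87 in treated cells, and in its flanks 1.04 and 3.73.

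Of the 39 Hox promoters, 31 had 3 or more sites, all 31 had a log2 ratio above 0 (median 1.43), and 14 were called higher (45.2%, against 13.3% of all promoters). Hoxa11, a factor of limb and kidney patterning, had 21 undifferentiated, 30 untreated and 178 treated reads, a log2 ratio of 3.06, or 2.02 with unlisted sites at 4 reads. Hoxb7 had 17, 17 and 132 reads, with a log2 ratio of 3.43, and Hoxc9, a thoracic Hox gene, had 0, 14 and 98, with 3.27. Hoxd10 had 6, 0 and 96 reads, with a log2 ratio of at least 1.91 if each unlisted site had 4. Hoxd1 stood lowest of the 31, at 55, 84 and 78 reads and a log2 ratio of 0.40, and was not called. Of 29 Hox gene bodies, 22 were called higher and none lower, with a median log2 ratio of 1.06, while 3.8% of all bodies were called higher.

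Of 18 neural promoters with 3 or more sites, 12 were called higher (66.7%, against 13.3% of all promoters) and all 18 had a log2 ratio above 0, as did 69.1% of all promoters. Gad1, which makes the transmitter GABA, had 0 undifferentiated, 8 untreated and 67 treated reads, a log2 ratio of 3.50. Pax3, a factor of the dorsal neural tube, had 14, 7 and 72 (3.78), and Lhx5, a forebrain homeobox factor, had 0, 0 and 49. Pax6, a factor of eye and forebrain, differed less, with 148, 213 and 384 reads and a log2 ratio of 1.36. Olig2, which specifies motor neurons and oligodendrocytes, had 5, 10 and 49 reads (2.75). Hes5, a target of Notch signalling, had 8, 63 and 50 reads and was not called, at 0.18. Of the neural promoters named here, Gad1, Pax3, Lhx5 and Olig2 had at most 14 reads in each of the other libraries, while Pax6 and Hes5 had 213 and 63 in untreated cells.

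Of 14 endoderm promoters, 7 were called higher (50%, against 13.3% of all and 18.7% of high-CpG promoters) and none lower. Pdgfra, a receptor of primitive endoderm, had 19, 38 and 165 reads, a log2 ratio of 2.61. Eomes, a T-box factor of the primitive streak, had 0, 19 and 80 (2.56), and Sox17 had 11, 17 and 60 (2.3). Gata4 had 102, 130 and 115 reads with a log2 ratio of 0.33 and was not called, whereas Gata6, a related endoderm factor, went from no listed read in the other libraries to 26. Of the trophoblast list, 3 of 13 were called higher (23.1%, against 13.3% of all promoters), among them Gata3, with 6, 7 and 66 reads and a log2 ratio of 3.66. Sox9, of the Fox, Sox and T-box list, had 0, 15 and 116 reads (3.42).

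Of 17 promoters in the retinoic acid list, 5 were called higher (29.4%, against 13.3% of all and 18.7% of high-CpG promoters), all of them genes that act in retinoid signalling or answer to it. Stra6, a retinol transporter gene, had 266, 193 and 284 reads and a log2 ratio of 1.07. Meis1, a homeobox cofactor of Hox proteins, was at 1.94, Rarg, a retinoic acid receptor, at 1.6, Aldh1a2, which makes retinoic acid, at 1.58, and Crabp2, a retinoic acid binding protein, at 1.57. With unlisted sites at 4 reads these 5 log2 ratios lay between 1.01 and 1.37. None of the 5 then reaches 2-fold when scaled by the authors' RPM. Rxrb, a retinoid X receptor gene, had a log2 ratio of -0.38 and was not called. No body of the 20 in this list was called in either direction, a small number to set beside the 3.8% of all bodies called higher and 1.22% lower.

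Pluripotency genes, whose enhancers the study was about, had a smaller promoter ratio than the developmental lists. Over all promoters of the list the levels were 81.7 undifferentiated, 125 untreated and 142 treated, 1.13-fold (1.04 to 1.23), a ratio that turns below 1 when scaled by the authors' RPM. Of 16 promoters with 3 or more sites, 2 were called higher (12.5%, near the 13.3% of all promoters) and 1 lower, with a median log2 ratio of -0.02 beside 0.30 over all promoters. Esrrb, a nuclear receptor of naive ESCs, had 167, 117 and 200 reads (1.28), and Gbx2, a homeobox factor, 14, 15 and 35 (1.71). With unlisted sites at 4 reads their log2 ratios were 1.06 and 1.03, and neither reaches 2-fold when scaled by the authors' RPM. Dppa2, a regulator of bivalent genes in ESCs, went from 20 and 53 reads to no listed read. Fbxo15 had 72, 115 and 36 reads with a log2 ratio of -1.15 and was not called, since its ratio with unlisted sites at 4 reads did not reach 2-fold. Pou5f1, the gene of OCT4, had 6, 124 and 83 reads and a log2 ratio of -0.07, so its promoter was far above the undifferentiated level in both day 7 libraries and differed little between them.

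Of 23 bodies of pluripotency genes, 2 were called higher and 1 lower, beside 3.8% and 1.22% of all bodies. Zfp42, the gene of REX1, was called lower, with 106 untreated and 31 treated reads and a log2 ratio of -1.25. Dppa3, a maternal factor that counters DNA methylation, was called higher at 1.13. The study measured enhancers of some of these genes by qPCR. Among them, the bodies of Esrrb, Lefty2, Trim28, Sall4 and Lefty1 had log2 ratios of -0.03, 0.39, 0.32, -0.19 and -0.21, and none was called. The promoters of Lefty1 and Sall4 had 0.86 (51, 75 and 96 reads) and -0.11 (0, 28 and 18 reads). The promoters of Sox2, Trim28 and Lefty2 had fewer than 3 sites.

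In the genes of the LSD1 complexes, 3 of 16 promoters were called higher (18.8%) and none lower, a share near the 13.3% of all promoters and the 18.7% of high-CpG ones. Kdm1a itself had 18 undifferentiated, 13 untreated and 28 treated reads, a log2 ratio of 1.59 that fell to 0.86 with unlisted sites at 4 reads, and was not called. Gfi1, a repressor that recruits LSD1, had 51, 124 and 244 reads (1.48), and Hdac1, a histone deacetylase of these complexes, had 0, 10 and 29 (2.00). Hdac2, a related deacetylase, went from no listed read in the other libraries to 25. With unlisted sites at 4 reads the log2 ratios of Gfi1, Hdac1 and Hdac2 were 1.36, 1.37 and 1.14. None of the 3 then reaches 2-fold when scaled by the authors' RPM. Mta2, a subunit of the NuRD complex, had 62, 83 and 28 reads and a log2 ratio of -1.04 that was not called. Of 12 promoters of the enzymes that write or erase H3K4 methylation, none was called, which is a small number to set beside the 13.3% of all promoters.

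Among the DNA methylation enzymes, 3 of 13 promoters were called higher (23.1%, beside 13.3% of all and 18.7% of high-CpG promoters) and none lower. The median log2 ratio of the 13 was -0.08, beside 0.30 over all promoters, and 6 of them were above 0. The pooled ratio of 1.11 turns below 1 when scaled by the authors' RPM. None of the 3 calls then reaches 2-fold with unlisted sites at 4 reads. Dnmt3b, a de novo methyltransferase gene, had 0, 5 and 25 reads, Tet3, which oxidises methylcytosine, had 11, 50 and 83, and Uhrf2, a relative of the DNMT1 partner UHRF1, had 0, 27 and 50. Their log2 ratios were 2.72, 1.24 and 1.39. Dnmt1, the maintenance enzyme gene, had 71, 83 and 41 reads and a log2 ratio of -0.50 that was not called. None of the 15 bodies was called, a small number to set beside the 3.8% of all bodies called higher and 1.22% lower.

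Germline, imprinted, ribosomal protein and olfactory receptor lists had small ratios over all their promoters. The 23 germline promoters tested had no call, beside 13.3% of all promoters called higher and 0.37% lower. Over all members the levels were 471, 485 and 552, 1.14-fold. Imprinted genes with an oocyte-methylated control region had a ratio of 1.08, and those with a sperm-methylated one 1.14. Sgce and Peg10, which share a promoter, were called on the same 6, 17 and 41 reads (1.76), and Rasgrf1, with a paternally methylated control region, on 0, 6 and 35 (2.96). Plagl1 was lower on the scaled counts but not called, with 208, 315 and 153 reads and a log2 ratio of -0.53. Histone genes went from 32.6 to 45.1 scaled reads per 1000 motifs, 1.38-fold, and ribosomal protein genes from 61.6 to 74.7, 1.21-fold, beside 1.43 over all high-CpG promoters. Olfactory receptor genes, which are CpG-poor and methylated in ESCs, had 763, 679 and 676, a ratio of 0.996. The ratios of the germline, imprinted, ribosomal protein and olfactory receptor lists are all below 1 when scaled by the authors' RPM. Of 121 promoters of numbered zinc finger genes, 16 were called higher (13.2%), near the 13.3% over all promoters.

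Gene bodies as a whole were nearly level, which scaling to the total CCGG reads largely sets. Those called higher were again led by homeobox genes. Of 20500 bodies, 778 were called higher (3.8%) and 250 lower (1.22%), with a median log2 ratio of -0.01. Scaled by the authors' RPM, 264 were higher and 3013 lower, and scaled to the median of shared sites, 648 and 335. In the body of Nkx2-3, a homeobox gene of gut and spleen, no read was listed in undifferentiated or untreated cells and 111 reads at 10 sites with pargyline, at least 3.92-fold higher if each unlisted site had 4 reads. Dlx5, of the jaw and forebrain, had 31, 36 and 157 (6.14-fold), Uncx, of the somites, 17, 44 and 187 (6.0-fold), and Lbx1, of migrating muscle precursors, 7, 61 and 255 (5.92-fold). Nkx2-2, of the ventral neural tube, had 77, 76 and 273 reads in its body (5.09-fold) and 51, 83 and 207 in its promoter, so both parts of the gene were higher. With unlisted sites at 4 reads the ratios of Dlx5, Uncx, Lbx1 and Nkx2-2 were 3.97, 2.95, 3.10 and 3.87.

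The 6 bodies named as lower held 3 to 7 sites each. E030030I06Rik had 5935 undifferentiated, 7363 untreated and 2829 treated reads at 6 sites, 1.83-fold lower (1.75 to 1.91). Mrpl4, a mitochondrial ribosomal protein gene, had 27, 117 and 32 reads, 2.54-fold lower (1.72 to 3.92). Cacybp, which encodes a calcyclin-binding protein, had 66, 157 and 46 (2.38-fold lower). Ptges3l, Rbm14 and Kdelc2 were 2.42-fold, 2.31-fold and 2.15-fold lower. In E030030I06Rik, Mrpl4, Cacybp, Ptges3l and Rbm14 the untreated level stood above both other libraries.

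Promoter and body calls were set side by side gene by gene. Of 9197 genes with 3 or more sites in each, 1399 were called higher in the promoter (15.2%) and 385 in the body (4.19%), and 126 in both, which is 9.01% of the former and 32.7% of the latter.

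At the scale of 1 Mb the scaled counts were nearly level. Scaling to the total CCGG reads holds the log2 ratios of such bins near 0 as a whole, so this says nothing about the libraries. Of 2411 bins, 82 were called higher (3.4%) and 10 lower (0.415%), with a median log2 ratio of 0.004. Scaled by the authors' RPM, 0 were higher and 2400 lower, and scaled to the median of shared sites, 29 and 61. The bin at 52 to 53 Mb of chromosome 6, which holds the HoxA cluster and Evx1, went from 18320 untreated to 15169 treated reads, a log2 ratio of 0.24. At its 150 sites near start sites the log2 ratio was 1.21, and at the others 0.11. The bin of Zic1 and Zic4, a pair of neural zinc finger genes at 91 to 92 Mb of chromosome 9, was at 0.26, with 0.72 near start sites. The bins of Cdh7 on chromosome 1 (0.30) and Csmd3 on chromosome 15 (0.27) hold few start sites. Calls were most frequent where motifs were few, since 48 of the 82 bins called higher lay in the fifth of bins with 10 to 385 motifs, whose median log2 ratio was 0.05.

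Of the 4 bins named as lower, 2 rested on single deep sites. The bin at 28 to 29 Mb of chromosome 4, with Epha7, went from 22754 to 11492 reads, a log2 ratio of -0.48. A single site there held 17068 untreated and 7697 treated reads, 75% of the untreated total, and without it the log2 ratio was -0.07. The bin at 22 to 23 Mb of chromosome 17 went from -0.19 to 0.04 without its deepest site. The other bins named were chromosome 10 at 22 to 23 Mb (-0.23), which holds E030030I06Rik, and chromosome 14 at 117 to 118 Mb (-0.18), which holds Gpc6. Without their deepest sites they were at -0.26 and -0.17. The 6 body sites of E030030I06Rik held 215 untreated and 118 treated scaled reads, of 597 and 508 in the chromosome 10 bin. The lower call of that bin thus rested on this gene.

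**Figure D5:**
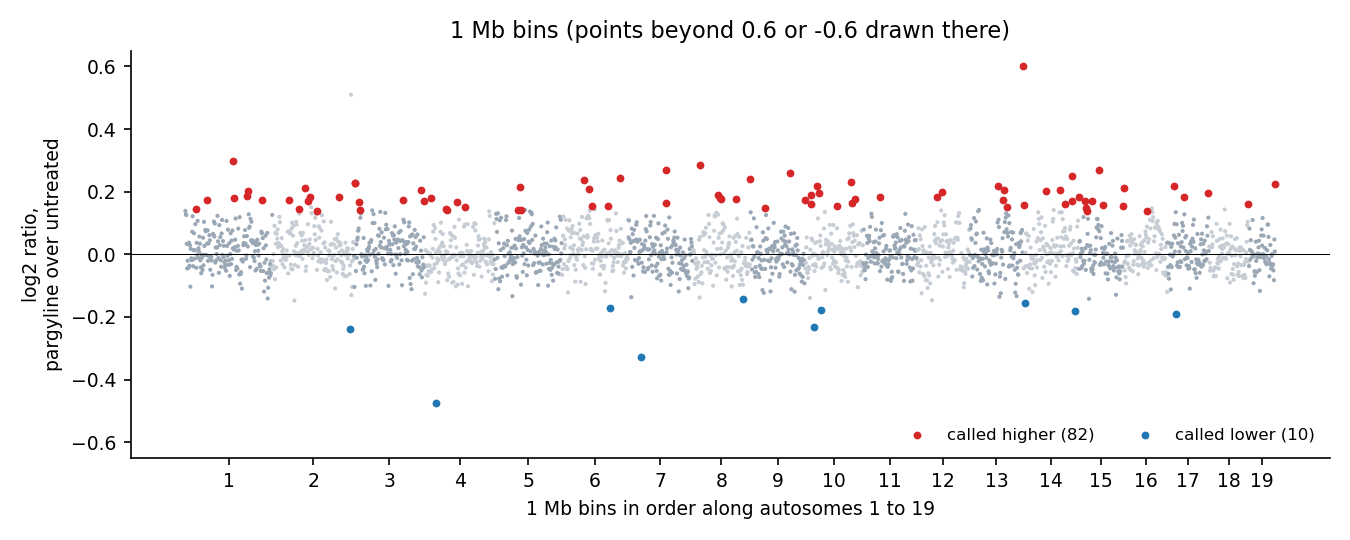
Log2 ratio of treated to untreated scaled CCGG reads in 2411 bins of 1 Mb, in order along the 19 autosomes, with the 82 bins called higher in red and the 10 called lower in blue. The bins gather around 0.004 on every autosome, and the lowest called bin drawn, on chromosome 4, is at -0.48.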

How the data were processed

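MethylRAD libraries of untreated and pargyline-treated E14Tg2A cells on day 7 were compared, with undifferentiated ESCs as a side value and 1 library per condition. The authors trimmed reads, required an FspEI site, aligned with Bowtie2 to GRCm38 and kept unique alignments. The submitters' processing notes name FastQC 0.11.3 and Bowtie2 2.3.3. The deposited tables hold, per site, an unnormalized read count from 5 reads upwards and an RPM value, which the authors computed from the mapped reads of the library.

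Autosomal CCGG counts were scaled to reads per 1000000 CCGG reads after sites at chr2:98662000-98668000 were left out (1919401 untreated and 1364704 treated reads). The reads left ranged from 24035286 to 34222790 per library, and of the listed positions 97.4% to 97.6% read CCGG in the reference. Genes came from GENCODE M21 basic. The CpG class came from windows of 500 bp, high at a CpG ratio above 0.75 with GC above 55% and low where no window had a ratio above 0.48. Units needed 3 sites. With 1 library a side there was no test. Ratios used a pseudocount of 0.5 reads and exact conditional binomial 95% intervals, which cover counting error only. In data simulated for the promoter comparison, 100% of promoters raised 4-fold and 99.0% of those lowered 4-fold were called. Of 10850 unchanged promoters there, 11 were called higher and 0 lower. The simulation held counting noise only, and the promoters it changed had 100 or more reads. Its rates therefore do not carry over to the calls above.

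Members and gene lists were chosen with earlier results of these data known. Named promoters were the 10 protein-coding ones in each direction with 100 or more reads and the interval bound farthest from 0 (for bodies 6, for bins 4). Of the bodies, 1 that this rule named is not reported here. Added to them were called promoters of lists of up to 30 genes, the genes with enhancers measured by qPCR, and the highest and lowest member of each other list. Other members, and the bodies of the lists, were chosen after their values were seen, as were 2 lists (homeobox and paired genes outside Hox, and Fox, Sox and T-box genes). Alternatives of scaling, site filter, depth, window and fold limit are given with their values in the closing section. Scripts ran in Python 3.11.15 with SciPy 1.17.1, pandas 2.3.3, matplotlib 3.10.9 and numpy 2.4.6. CCTGG sites and the untreated CCAGG counts, which repeat the undifferentiated ones, were not used.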

Additional observations from a re-analysis of the deposited data

Results flagged for a closer look

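CCAGG sites, which the promoter, body and bin comparisons do not use, gave a signal above the level in undifferentiated cells. In high-CpG promoters 24.3% of CCAGG motifs were listed in the treated library, against 5.79% in the undifferentiated one. Beyond 1 kb of any start site the shares were 23.8% and 7.18%. These shares were not corrected for depth, and the treated library had more mapped reads than the undifferentiated one. The untreated list repeats the undifferentiated CCAGG counts, so the level in untreated cells was not analysed here, and the part of this signal in the CCGG differences was not tested.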

How the results depend on the processing

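Of 907 values recomputed for named genes, 796 stayed within their counting interval, 111 moved further, and no called one turned direction. Under scaling by the authors' RPM, which moves each log2 ratio by -0.38, the calls were 679 promoters higher and 332 lower, 264 bodies and 3013, and 0 bins and 2400, with CpG-class medians of 0.17 (high), -0.14 (intermediate) and -0.32 (low), so the last 2 turned. Scaled to the median of shared sites, bins were 29 and 61 and the medians 0.50, 0.19 and 0.012. With sites listed in both libraries only, promoters were 526 and 16 (470 of the 526 shared with the 1829), bins 45 and 19, and the high and intermediate medians 0.31 and 0.15. From 10 reads a site, promoters were 1030 and 78, with medians of 0.44 and 0.20. Untreated counts thinned to the treated depth gave 1134 promoters higher, 18 bins lower, and medians of 0.70 and 0.27. Units of 5 or more sites gave 925 and 7 promoters, 442 and 88 bodies, and medians of 0.60, 0.33 and 0.081. Promoters of 500 bp gave 29 lower and medians of 0.69, 0.36 and 0.10. Upstream promoters gave 962 and 31, and medians of 0.62, 0.31 and 0.11. At 3-fold, promoters were 340 and 4. Whole gene spans gave 1364 bodies higher. With unlisted sites at 0 reads only, an alternative chosen after seeing the data, promoters were 2903 and 352 and bins lower 16. The cause of these shifts was not tested. The high-CpG median stayed above 0 under each of these settings.

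With 1 library per condition, no replicate could be left out. No paired analysis was possible because each condition was 1 library and no test was made. Depth limits single sites, since a site under 5 reads is not listed and the treated library was the shallower of the pair. Promoter counts depend on the minimum of 3 listed sites, and the median log2 ratio was 0.11 for promoters with exactly 2 sites, 0.17 with 3 and 0.24 with 4.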
